A study of Mus musculus with 6 samples.

Results

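The 10 genes described here encode the proteins that bring choline into mouse cells, turn it into phosphatidylcholine or oxidise it to betaine. They were chosen by symbol as Slc44a1, Slc44a2, Chka, Chkb, Pcyt1a, Chpt1, Cept1, Pemt, Chdh and Bhmt. All 10 were found among the 22905 symbols of the count table, and 9 of them passed the filter on low counts that left 14439 genes for testing, Chkb being the exception. RNA of primary hepatic stellate cells, liver pericytes that store vitamin A, was sequenced in 3 libraries labelled DOX and 3 labelled PBS. Both groups carried the genotype BucheKI/KI-Hep and both had received CCL4, a hepatotoxin used to model liver fibrosis. The series describes raised butyrylcholinesterase in hepatocytes, and the comparison of DOX with PBS asks how the isolated cells differed. Choline is a product when butyrylcholinesterase hydrolyses choline esters. The sources used here do not give the element that drives the introduced gene, the animals' ages or whether animals were pooled. The labels do not spell out DOX, PBS or the S2W of the sample titles. Libraries labelled DOX from animals lacking that gene, and uninjured animals, were not analysed here, so an action of DOX itself and one of the gene cannot be told apart.

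Choline carries a charge and needs transporters to cross membranes. Inside the cell it is phosphorylated by choline kinase, activated with CTP by a cytidylyl transferase, which is the rate-limiting step, and joined to diacylglycerol by a phosphotransferase. This sequence is the CDP-choline or Kennedy pathway, and its product is the main phospholipid of mammalian membranes. The liver also makes phosphatidylcholine by methylating phosphatidylethanolamine, and it oxidises choline to betaine, whose methyl group turns homocysteine back into methionine.

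Depth was even, with total counts between 36220282 and 37707364 per library, so that 1 read was worth 0.0253 to 0.0293 CPM (counts scaled to library size with TMM factors). The labels do not give the animal or culture behind each replicate, so a p-value here reflects only the spread among these libraries, which may be technical. Bche, the butyrylcholinesterase gene, had 1225, 582 and 3639 counts in DOX replicates 1, 2 and 3, against 8, 26 and 14 counts in PBS replicates 1, 2 and 3. Markers of the labelled cell type were present at levels that differed widely per transcript length. Dcn, the decorin gene, stood between 199 and 307 FPKM in DOX and between 177 and 383 FPKM in PBS, and the collagen gene Col1a1 between 17.3 and 29.5 FPKM in DOX and between 15.6 and 44.2 FPKM in PBS. Lrat, which stores retinol as esters in stellate cells, stood between 0.347 and 0.525 FPKM in DOX and between 0.222 and 0.693 FPKM in PBS, while the endothelial gene Cdh5 stood between 499 and 589 FPKM in DOX and between 595 and 719 FPKM in PBS. The summed level of 10 macrophage markers was 10839.9, 5495 and 6713 CPM in DOX replicates 1, 2 and 3, against 3726, 4919.9 and 3340.1 CPM in PBS. The summed level of 10 hepatocyte markers was 615, 197 and 2600.5 CPM in DOX, against 119.9, 231 and 285 CPM in PBS, and none of these markers was at 0 in every library. Of these markers edgeR called 0 of 10 macrophage genes (8 at an unadjusted p under 0.05, 7 by DESeq2, 1 by limma-voom) and 0 of 10 hepatocyte genes (9, 6 and 0). It called 2 of 3 tested neutrophil genes, 1 of 4 lymphocyte and 1 of 5 cholangiocyte genes higher, 1 of 8 endothelial genes lower and 0 of 13 stellate genes (2 at an unadjusted p under 0.05, 1 by DESeq2, 0 by limma-voom). The sum of 13 stellate markers was between 916 and 1399 CPM in DOX and between 799.7 and 1813 CPM in PBS, and that of 8 endothelial markers between 4083 and 5173 CPM in DOX and between 4689 and 5623 CPM in PBS. Lymphocyte markers summed to between 3.18 and 7.52 CPM in DOX, against 0.707 to 2.57 CPM in PBS, and neutrophil markers to between 8.34 and 19.8 CPM in DOX, against 2.37 to 5.25 CPM in PBS. The sum of 5 cholangiocyte markers was between 510.2 and 643 CPM in DOX and between 298 and 654 CPM in PBS. The macrophage, lymphocyte and neutrophil sums did not overlap between the groups, and the hepatocyte sum of DOX replicate 2 lay inside the PBS range. Gene by gene, the groups overlapped for the macrophage markers Cd68 and Lyz2 and the lymphocyte markers Cd3e and Cd79a. They also overlapped for the neutrophil markers Mmp8 and Ly6g, and Ly6g was at most 0.109 CPM in any library. In such bulk RNA, fewer cells of a type and less RNA per cell cannot be told apart.

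Of the 9 tested genes, 3 were higher in DOX at an adjusted p under 0.05 and 0 were lower. They were the choline transporter gene Slc44a1, the phosphotransferase gene Cept1 and the choline dehydrogenase gene Chdh. In the same edgeR fit 4.38% of all tested genes were called higher, 2.04% lower and 6.41% in either direction. At an unadjusted p under 0.05, edgeR had 5 of the 9 genes higher and 0 lower, DESeq2 called 5 higher and 0 lower, and limma-voom called 3 higher and 0 lower. Over all tested genes these shares were 15.9% higher and 12.7% lower at the unadjusted p, 11.3% and 6.36% in DESeq2, and 4.02% and 1.95% in limma-voom. The median log2 fold change of the 9 genes was 0.47 (0.37 by library totals alone), beside -0.01 over all tested genes. The ranges of DOX and PBS libraries were apart for 4 of the 9 genes, Slc44a1, Slc44a2, Cept1 and Chdh, where 34.6% of all tested genes had groups that did not overlap. The choline kinase and cytidylyl transferase genes, which act between uptake and the last step, were not among the genes called. Leaving out 1 library changed the calls over all genes as well. With all libraries 926 genes were called, and without DOX replicates 1, 2 and 3 there were 85, 438 and 1090. Without PBS replicates 1, 2 and 3 there were 781, 0 and 0. A call lost without PBS replicate 2 or PBS replicate 3 was thus lost by every gene. The part of macrophage, lymphocyte and neutrophil transcripts, whose sums were higher in every DOX library than in any PBS library, was not tested.

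**Figure D1:**
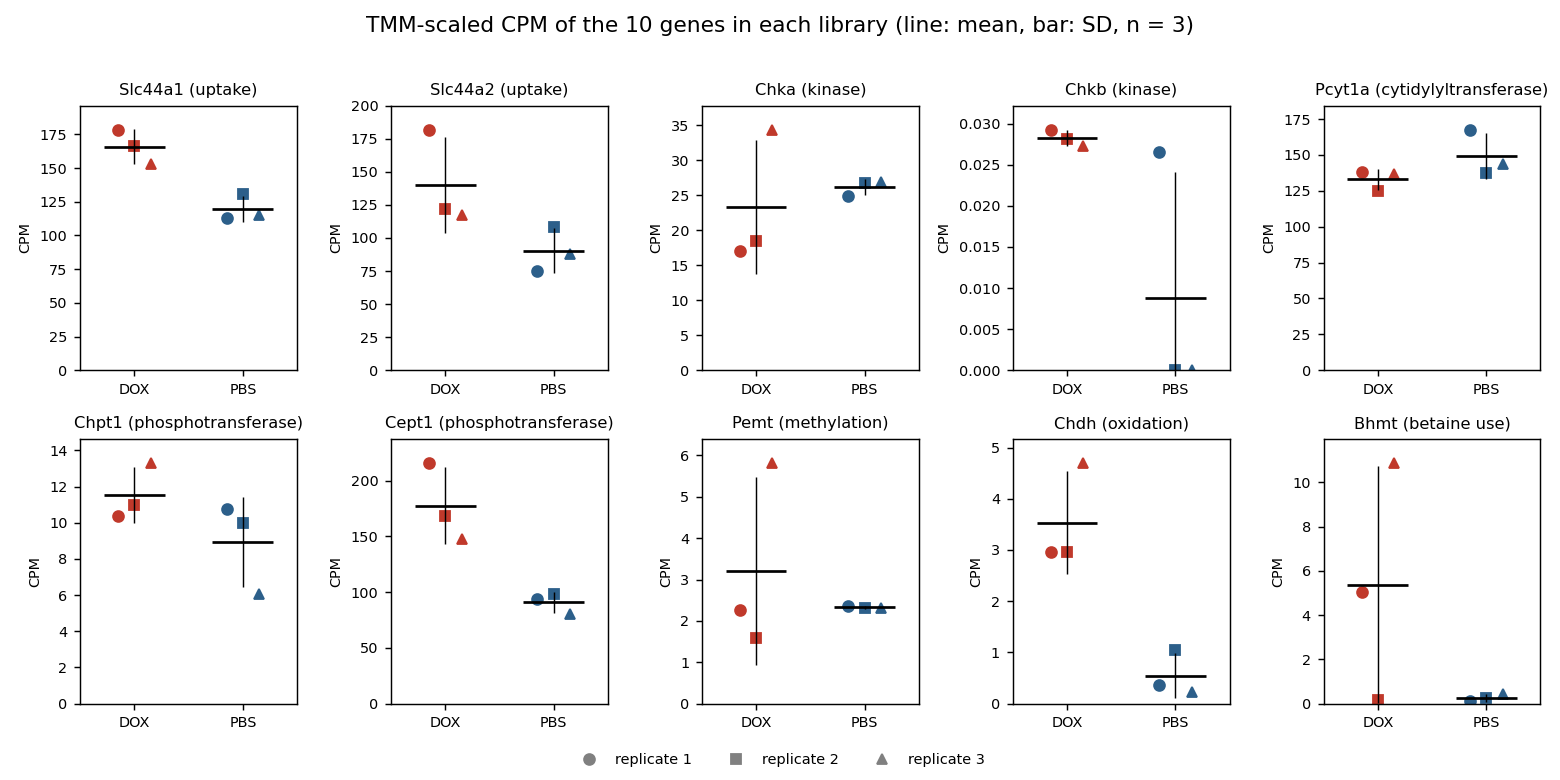
Normalised counts (CPM) of each of the 10 genes in the 3 DOX and 3 PBS libraries, with a line at the mean, a bar for the SD and a symbol for the replicate number. The groups do not overlap for Slc44a1, Slc44a2, Cept1 and Chdh, and 1 or 2 DOX libraries stand apart for Chka, Pemt and Bhmt.

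**Figure D2:**
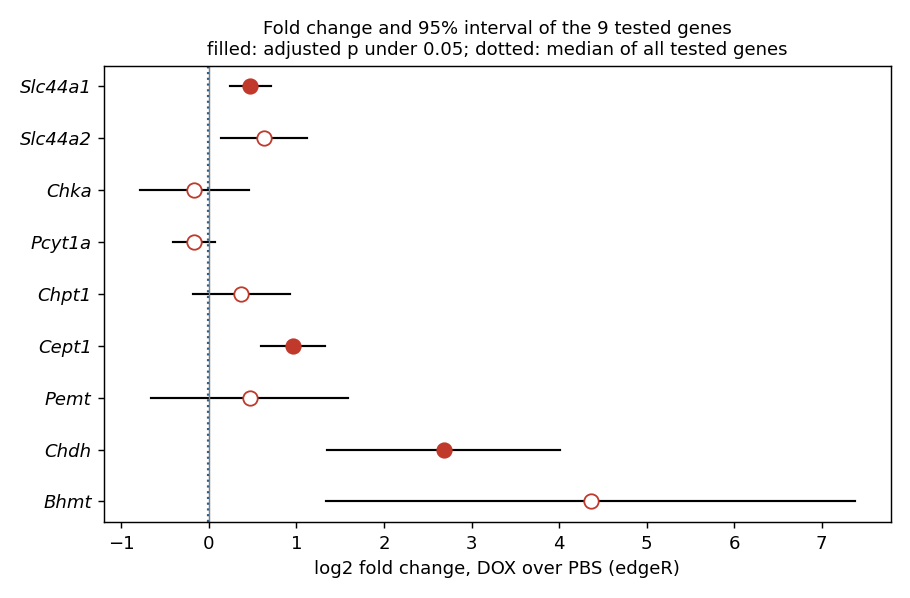
The log2 fold change of DOX over PBS (x axis) of the 9 tested genes with its 95% confidence interval from edgeR, filled where the adjusted p was under 0.05. Cept1, Slc44a1 and Chdh are filled, and the widest interval is that of Bhmt, between 1.34 and 7.38.

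Slc44a1, which encodes a choline transporter-like protein of the plasma membrane and mitochondria, was 1.39-fold higher in DOX. It had 178, 167 and 153 CPM in DOX replicates 1, 2 and 3, against 113, 131 and 115 CPM in PBS replicates 1, 2 and 3. Every DOX library lay above every PBS library. The means were 166 ± 12.8 CPM in DOX and 119 ± 9.75 CPM in PBS (SD, n = 3 each), and the log2 fold change of DOX over PBS was 0.47 (SE 0.0991, 95% interval 0.24 to 0.71, edgeR adjusted p = 0.0417). The call was near the threshold and was lost without DOX replicate 1 (0.42, edgeR adjusted p = 0.115), DOX replicate 2 (0.47, 0.0836), PBS replicate 1 (0.43, 0.0838), PBS replicate 2 (0.54, 0.0865) or PBS replicate 3 (0.44, 0.144). It held in 8 of 18 alternative settings, and was also lost by library totals alone (0.34, edgeR adjusted p = 0.0624), a scaling that shifted the median of all genes by -0.13, and in all 3 limma settings on log2 FPKM (0.33 to 0.35, adjusted p between 0.0609 and 0.0694). The gene lies on chromosome 4 of GRCm38 from 53440413 to 53622478 on the plus strand (GENCODE vM21).

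Slc44a2, which encodes a related transporter found at the plasma membrane and in mitochondria, had 182, 122 and 117 CPM in DOX replicates 1, 2 and 3, against 74.8, 109 and 87.7 CPM in PBS replicates 1, 2 and 3. The groups did not overlap, but DOX replicate 1 stood far above the other DOX libraries and the closest DOX and PBS libraries were near each other. The means were 140.2 ± 36.2 CPM in DOX and 90.4 ± 17.0 CPM in PBS (SD, n = 3 each), with a log2 fold change of 0.63 (SE 0.21, 95% interval 0.14 to 1.12), which did not pass in edgeR (adjusted p = 0.104) and did in DESeq2 (adjusted p = 0.0365). For every 100 counts of Slc44a2 there were 98.1, 137 and 131 counts of Slc44a1 in DOX, against 151, 120.4 and 131 in PBS. The groups overlapped in this ratio (log2 difference -0.15, exact two-sided permutation p = 0.5), and 3 libraries against 3 cannot give a p below 0.1. Both transporter genes were highest in DOX replicate 1, which also held the highest macrophage and lymphocyte marker sums. DOX replicate 2 was above DOX replicate 3 in both genes and below it in both sums. The part of macrophage and lymphocyte transcripts in these differences was not tested. Slc44a2 lies on chromosome 9 from 21320698 to 21355028, on the plus strand.

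The promoter of Slc44a1 is shown with part of that of Cept1, because these were the uptake gene and the synthesis gene that were called. The sequences are those of RefSeq (GRCm38.p6), read 5′ to 3′ on the gene's strand, and capitals mark the GC box GGGCGG or its complement. The first is chr4:53440163-53440412 on the plus strand, the 250 bases that end at the base before the annotated start. The second is chr3:106547836-106547865 on the minus strand, 33 bases upstream of the start. It lies within the GENCODE span of Dram2, a gene on the opposite strand.
Slc44a1: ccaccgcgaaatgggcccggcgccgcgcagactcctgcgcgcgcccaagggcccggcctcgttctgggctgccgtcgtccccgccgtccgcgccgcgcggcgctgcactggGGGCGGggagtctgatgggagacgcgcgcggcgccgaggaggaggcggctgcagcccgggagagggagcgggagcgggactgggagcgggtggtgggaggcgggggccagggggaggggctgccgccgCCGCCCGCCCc
Cept1: ctgtaggagcctGGGCGGagccccggggcg
The Slc44a1 window held 3 GC boxes, 2 of which overlap each other, and 81.2% of its bases were G or C, where the median over 32817 windows of 250 bases was 52.4% (quartiles 45.2% and 61.2%). Searched on both strands in windows of that length, the GC box was found in 32.7% of all windows, the E-box CACGTG in 6.0%, the CCAAT box CCAAT in 33.8% and the TATA box TATAAA in 12.4%. The GC box was found in the windows of 8 of the 10 genes, and those of Pemt and Bhmt, with 44.8% and 48.0% G or C, held none. The RefSeq start behind the Pemt window lies 6301 bases from the start of the gene in the GENCODE annotation, and that of Bhmt 203 bases, so these matches concern other starts than those of GENCODE. Among the genes with a GC box, the RefSeq starts of Slc44a2, Chkb, Chpt1 and Chdh lie 21, 19, 103 and 23 bases from the GENCODE start. For Chkb, Pemt and Chdh the bases after the RefSeq start were found in no GENCODE transcript of the gene. None of the 10 windows held the E-box. These are matches of letters and say nothing of which factors bound.

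Nearly all counts of the choline kinase genes, which act at the first step, were those of Chka. Chka encodes choline kinase alpha, and it had 17.1, 18.4 and 34.4 CPM in DOX replicates 1, 2 and 3, against 24.9, 26.8 and 26.8 CPM in PBS replicates 1, 2 and 3. DOX replicates 1 and 2 lay below every PBS library and DOX replicate 3 above every one. The means were 23.3 ± 9.61 CPM in DOX and 26.2 ± 1.12 CPM in PBS (SD, n = 3 each), and on the log2 scale DOX differed from PBS by -0.17 (SE 0.26, 95% interval -0.79 to 0.45, edgeR adjusted p = 0.715). DOX replicate 3 decided this value. Without it Chka was lower in DOX (-0.56, edgeR adjusted p = 0.0380), and without DOX replicate 1 the log2 fold change was 0.02 (edgeR adjusted p = 0.977). DOX replicate 3 also held the highest hepatocyte marker sum, whose part in the Chka value was not tested.

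Chkb, the choline kinase beta gene, had 1 count in each DOX library, against 1, 0 and 0 counts in PBS replicates 1, 2 and 3. These values are under the limit of 3 counts that a count of 0 allows, 0.0758 to 0.0878 CPM, so no fold is given, and such limits cover counting error only. Chkb lies on chromosome 15 from 89426360 to 89429908 on the minus strand. Of its 3061 exonic bases in GENCODE vM21, 1552 (50.7%) are shared with the overlapping gene Gm44502 on the same strand, and 320 (10.5%) with C730034F03Rik on the opposite strand. Gm44502 had 2, 14 and 2 counts in DOX, against 23, 18 and 6 counts in PBS (log2 fold change -1.26, edgeR adjusted p = 0.372). The sources used here do not say how reads that match several genes were counted, so the counts of Chkb are uncertain and are not read as absence of the transcript.

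Pcyt1a, which encodes the CTP:phosphocholine cytidylyl transferase alpha of the rate-limiting step, had 138, 125 and 136 CPM in DOX replicates 1, 2 and 3, against 168, 137 and 144 CPM in PBS replicates 1, 2 and 3. The groups overlapped, since DOX replicate 1 was above PBS replicate 2. The means were 133 ± 7.25 CPM in DOX and 149 ± 16.0 CPM in PBS (SD, n = 3 each). On the log2 scale DOX differed from PBS by -0.17 (SE 0.10, edgeR adjusted p = 0.323), with a 95% interval of -0.41 to 0.07 that is among the narrowest of the 9 genes. Pcyt1a stayed outside the threshold with a negative value in all 18 alternative settings. It lies on chromosome 16 from 32430921 to 32475070, and 7.6% of its exonic bases are shared with Slc51a on the opposite strand.

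Of the synthesis genes, the one called acts at the last step. Cept1 encodes choline/ethanolamine phosphotransferase 1, which makes phosphatidylcholine and phosphatidylethanolamine, and it was 1.95-fold higher in DOX. It had 216, 168 and 148 CPM in DOX replicates 1, 2 and 3, against 94.0, 98.5 and 80.4 CPM in PBS replicates 1, 2 and 3. Every DOX library was above every PBS library, and the gap between the nearest libraries was wider than the PBS range. The means were 177 ± 34.6 CPM in DOX and 90.9 ± 9.45 CPM in PBS (SD, n = 3 each), and the log2 fold change of DOX over PBS was 0.96 (SE 0.16, 95% interval 0.60 to 1.33, edgeR adjusted p = 0.0276). The call held in 15 of 18 alternative settings and was lost without DOX replicate 1 (0.80, edgeR adjusted p = 0.0597), PBS replicate 2 (1.02, 0.0774) or PBS replicate 3 (0.88, 0.0964). Over all genes 85, 0 and 0 were called without these libraries, against 926 with all of them. Like the transporter genes, Cept1 was highest in DOX replicate 1, the library with the highest macrophage and lymphocyte sums. DOX replicate 2 was above DOX replicate 3 in Cept1 and below it in both sums. The part of these cell types in the difference was not tested.

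Chpt1, the choline phosphotransferase gene whose product makes phosphatidylcholine alone, had 10.4, 11.0 and 13.3 CPM in DOX replicates 1, 2 and 3, against 10.7, 9.97 and 6.09 CPM in PBS replicates 1, 2 and 3. The groups overlapped, and PBS replicate 3 was lowest. Its log2 fold change was 0.37 (SE 0.24, 95% interval -0.19 to 0.93, edgeR adjusted p = 0.344). Per transcript length, the level of Cept1 was 12.6, 9.36 and 6.77 times that of Chpt1 in DOX, against 5.32, 6.01 and 8.03 times in PBS. These multiples rest on the gene lengths behind the deposited FPKM, which were not given and differ from the exonic lengths in GENCODE vM21. The log2 ratio of Chpt1 to Cept1 was lower in DOX by 0.55 on average, but the groups overlapped (log2 difference -0.55, exact two-sided permutation p = 0.2, Benjamini-Hochberg 0.333 over the 5 ratios compared). A shift of transcripts between the 2 phosphotransferase genes was thus not detectable with 3 libraries a group. Chpt1 lies on chromosome 10 from 88452745 to 88504073 on the minus strand.

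Cept1 lies on the minus strand of chromosome 3 from 106502260 to 106547802 and has close neighbours on the other strand. Dram2, a lysosomal membrane protein gene named after its values were seen, begins head to head with it and shares 5 exonic bases. Dram2 had 124, 92.4 and 88.6 CPM in DOX replicates 1, 2 and 3, against 62.4, 73.9 and 54.5 CPM in PBS. The groups did not overlap, and the log2 fold change of 0.68 (SE 0.17) had an edgeR adjusted p of 0.0565. Dennd2d, at the 3′ end, shares 771 bases, or 24.7% of the 3116 exonic bases of Cept1 in GENCODE vM21. The deposited counts and FPKM of Cept1 imply a longer gene than that. The overlap in the gene model behind the counts is thus unknown. Dennd2d had 86, 133 and 120 counts in DOX, against 69, 75 and 79 counts in PBS, while Cept1 had 7364, 5982 and 5423 counts in DOX, against 3544, 3766 and 3182 counts in PBS. Whether reads of these neighbours were counted as Cept1 was not tested. Use of the strand in counting was not given in these sources.

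Pemt encodes the enzyme that methylates phosphatidylethanolamine, a route known mainly from hepatocytes. It had 2.25, 1.58 and 5.81 CPM in DOX replicates 1, 2 and 3, against 2.36, 2.30 and 2.32 CPM in PBS replicates 1, 2 and 3. DOX replicate 3 alone lay above the PBS libraries, and DOX replicates 1 and 2 lay below them. The log2 fold change was 0.47 (SE 0.48, 95% interval -0.66 to 1.59, edgeR adjusted p = 0.558), and it was -0.28 without DOX replicate 3 (edgeR adjusted p = 0.529). That library held the highest hepatocyte marker sum. For every 100 counts of Alb, the albumin gene of hepatocytes, there were 0.651, 1.36 and 0.312 counts of Pemt in DOX, against 2.76, 1.38 and 1.11 in PBS (log2 difference -1.31, exact two-sided permutation p = 0.2, Benjamini-Hochberg 0.333). The direction of Pemt was thus positive beside all genes and negative beside Alb, and neither passed a test.

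Chdh, which encodes the mitochondrial choline dehydrogenase that starts the oxidation of choline to betaine, was 6.43-fold higher in DOX. It had 101, 105 and 172 counts in DOX replicates 1, 2 and 3, against 14, 40 and 9 counts in PBS replicates 1, 2 and 3. As normalised counts this was 2.96, 2.96 and 4.69 CPM in DOX, against 0.371, 1.05 and 0.227 CPM in PBS, with no overlap. The means were 3.54 ± 1.003 CPM in DOX and 0.548 ± 0.437 CPM in PBS (SD, n = 3 each), and the log2 fold change of DOX over PBS was 2.68 (SE 0.56, 95% interval 1.35 to 4.01, edgeR adjusted p = 0.0418). The call held in 9 of 16 alternative settings, among them DESeq2 (2.70, adjusted p = 2.25e-05) and limma-voom (2.92, adjusted p = 0.0335). It was lost without any one of the libraries. The log2 fold changes were 2.81, 2.80 and 2.43 without DOX replicates 1, 2 and 3 (edgeR adjusted p = 0.108, 0.0687 and 0.0659). They were 2.47, 3.55 and 2.31 without PBS replicates 1, 2 and 3 (edgeR adjusted p = 0.0842, 0.0663 and 0.115). Without PBS replicate 2 or PBS replicate 3, 0 genes of the whole table passed. Without PBS replicate 2 the smallest edgeR adjusted p of any gene was 0.0663. In DOX replicate 2 the hepatocyte sum of 197 CPM lay inside the PBS range, while Chdh and 3 of the 10 hepatocyte markers, Fga, Fgb and Hnf4a, were above every PBS library. Fga had 22.6 CPM there, against at most 16.4 CPM in PBS. The part of hepatocyte RNA, or of macrophage, lymphocyte and neutrophil transcripts, in the Chdh difference was not tested. For every 100 counts of Alb there were 0.853, 2.55 and 0.252 counts of Chdh in DOX, against 0.435, 0.629 and 0.109 in PBS, and this ratio overlapped between the groups (log2 difference 1.40, exact two-sided permutation p = 0.4, Benjamini-Hochberg 0.5).

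Chdh lies on the plus strand of chromosome 14 from 30009023 to 30040527, and 589 of its exonic bases (9.5%) are shared with the calcium channel gene Cacna1d on the opposite strand. Cacna1d had 80, 72 and 69 counts in DOX, against 70, 16 and 9 counts in PBS (log2 fold change 1.32, SE 0.71, edgeR adjusted p = 0.263). With strand use unknown, reads of this neighbour could not be separated from those of Chdh at the shared bases, and their part in the Chdh difference was not tested.

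Bhmt encodes betaine-homocysteine methyltransferase, which uses betaine to remake methionine and is an abundant enzyme of hepatocytes. It had 173, 6 and 398 counts in DOX replicates 1, 2 and 3, against 4, 9 and 17 counts in PBS replicates 1, 2 and 3. DOX replicates 1 and 3 were far above the PBS libraries, at 5.06 and 10.9 CPM, while DOX replicate 2, at 0.169 CPM, lay inside the PBS range of 0.106 to 0.429 CPM. The log2 fold change of 4.36 (SE 1.28, 95% interval 1.34 to 7.38) did not pass in edgeR (adjusted p = 0.0834). It passed in DESeq2 (4.38, adjusted p = 0.0119) and without DOX replicate 2 (4.93, edgeR adjusted p = 0.0374), so that library decided the call. The 6 libraries had the same order in Bhmt as in the summed level of the 10 hepatocyte markers, which is a description over 6 libraries of 2 groups. For every 100 counts of Alb there were 1.46, 0.146 and 0.583 counts of Bhmt in DOX, against 0.124, 0.141 and 0.206 in PBS (log2 difference 1.70, exact two-sided permutation p = 0.2, Benjamini-Hochberg 0.333). The part of hepatocyte RNA in the Bhmt difference was not tested beyond this ratio. Bhmt lies on chromosome 13 from 93616675 to 93637961, on the minus strand.

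**Figure D3:**
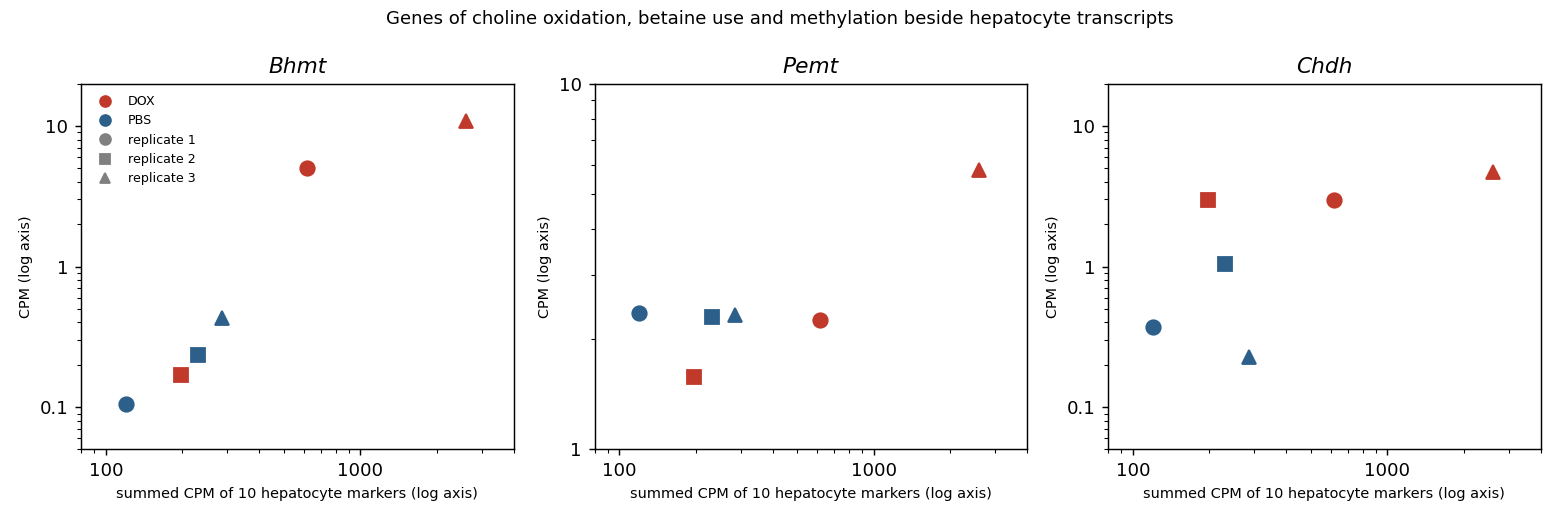
Normalised counts (CPM, log axis) of Bhmt, Pemt and Chdh in each library against the summed CPM of 10 hepatocyte markers (log axis), coloured by group and with a symbol for the replicate number. Bhmt keeps the order of the marker sum, Pemt is high only in DOX replicate 3, and the marker sum of DOX replicate 2 is 197 CPM.

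By the deposited FPKM, levels per transcript length fell into an abundant and a scarce group of genes. The order between genes and the percentiles rest on the gene lengths behind FPKM, which were not given. In DOX, Slc44a2 averaged 34.4 ± 7.68 FPKM, Pcyt1a 24.5 ± 1.95, Slc44a1 19.8 ± 0.685 and Cept1 15.3 ± 2.38 FPKM (SD, n = 3). In PBS, Slc44a2 averaged 24.4 ± 4.93 FPKM, Pcyt1a 30.00 ± 2.64, Slc44a1 15.6 ± 1.47 and Cept1 8.58 ± 0.865 FPKM (SD, n = 3). These 4 genes, which cover uptake, the rate-limiting step and the last step, stood between the 67.5th and the 84.3rd percentile of mean FPKM among tested genes. Their libraries did not overlap from one place in the order to the next, except that Pcyt1a and Slc44a2 overlapped in PBS. The scarce group held Chka at 2.29 ± 1.06 FPKM in DOX and 2.78 ± 0.171 FPKM in PBS, and Chpt1 at 1.65 ± 0.300 FPKM in DOX and 1.38 ± 0.371 FPKM in PBS. Pemt averaged 2.39 ± 1.80 FPKM in DOX and 1.85 ± 0.0172 FPKM in PBS. Bhmt averaged 2.54 ± 2.62 FPKM in DOX and 0.130 ± 0.0839 FPKM in PBS, and Chdh 0.579 ± 0.194 FPKM in DOX and 0.0975 ± 0.0788 FPKM in PBS. In DOX the neighbours Bhmt, Pemt, Chka and Chpt1 overlapped in the order, and in PBS Bhmt and Chdh did.

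**Figure D4:**
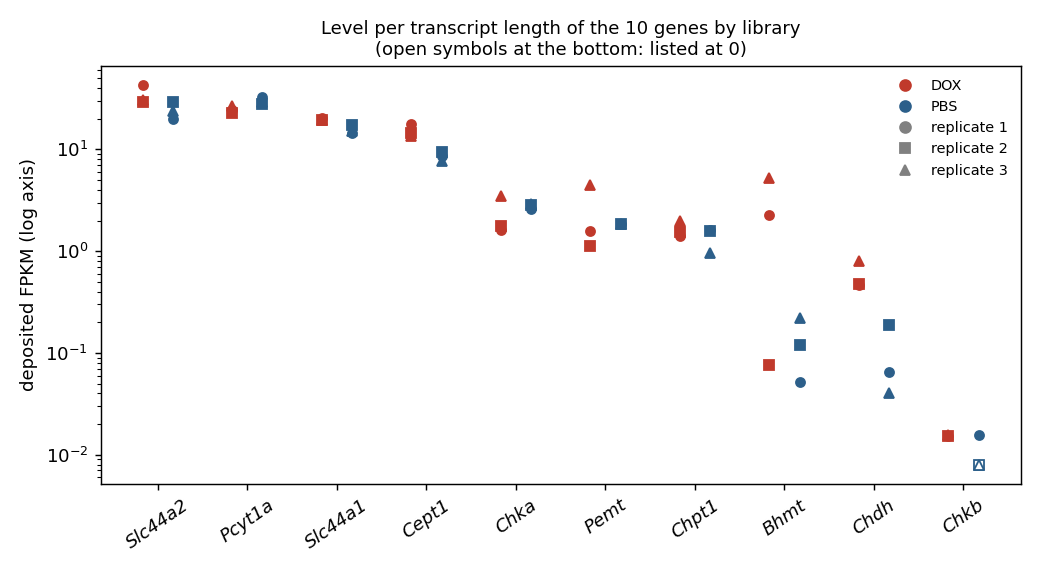
Deposited FPKM (log axis) of the 10 genes in each library, ordered by the mean over all libraries, with DOX to the left of PBS for each gene and a symbol for the replicate number. Slc44a2, Pcyt1a, Slc44a1 and Cept1 lie above the other genes in every library, and open symbols at the bottom mark Chkb listed at 0.

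The genes whose normalised values over the 6 libraries lay closest to those of each called gene were looked up among 9764 genes with a mean of at least 5 CPM, by the root mean square distance of centred log2 CPM. For Slc44a1 they were Rnf103 and Edem2, which act in degradation of proteins from the endoplasmic reticulum, and the RNA exosome adaptor gene Rbm7, at distances of 0.0435, 0.0508 and 0.0532 and with 1.35, 1.40 and 1.42-fold higher levels in DOX. For Cept1 they were the mitochondrial glycerol-3-phosphate dehydrogenase gene Gpd2, the ceramide synthase gene Cers6 and the interferon-induced helicase gene Ddx60, at distances of 0.0601, 0.0619 and 0.0661 and with 1.84, 2.02 and 2.00-fold higher levels. For Chdh the distances were larger, 0.430 to the chemokine receptor gene Ccr9, 0.476 to the sialic acid binding lectin gene Siglech and 0.537 to the formyl peptide receptor gene Fpr1. Ccr9, Siglech and Fpr1 were 5.83, 6.45 and 6.82-fold higher in DOX. Likeness over 6 libraries of 2 groups is a description and was not tested.

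Other genes of choline and phosphatidylcholine handling were read from the same fit in 8 lists. Of 73 listed genes 69 had a row, 61 were tested, 4 were higher in DOX and 0 lower at an adjusted p under 0.05 in edgeR. At an unadjusted p under 0.05, 15 were higher and 9 lower, DESeq2 called 11 higher and 3 lower, and limma-voom called 3 higher and 0 lower. The 4 edgeR calls are 6.56% of the 61 genes, near the 6.41% of all tested genes, and the all-gene shares for the other counts are those given above for the 9 genes. The median log2 fold change of the 61 genes was 0.05, close to the -0.01 of all tested genes. Those called included Bche, Pla2g4a and Lpcat2.

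Among phosphatidylcholine breakdown genes 1 of 15 was higher and 0 were lower (unadjusted 1 higher and 0 lower). Pla2g4a, the cytosolic phospholipase that frees arachidonic acid from phosphatidylcholine, had 76.5, 62.7 and 46.8 CPM in DOX, against 24.4, 32.4 and 25.2 CPM in PBS (log2 fold change 1.18, SE 0.20, edgeR adjusted p = 0.0286), with groups that did not overlap. Its call was lost without DOX replicate 1 (1.01, edgeR adjusted p = 0.0747), DOX replicate 2 (1.17, 0.0578), PBS replicate 1 (1.11, 0.0521), PBS replicate 2 (1.32, 0.0746) or PBS replicate 3 (1.13, 0.102). Among remodelling and transfer genes 1 of 8 was higher and 0 were lower (unadjusted 5 higher and 0 lower), with a median log2 fold change of 0.44. Lpcat2, which reacylates lysophosphatidylcholine and makes platelet-activating factor in inflammatory cells, had 29.8, 14.7 and 21.2 CPM in DOX, against 5.59, 10.4 and 4.72 CPM in PBS (log2 fold change 1.66, SE 0.37, edgeR adjusted p = 0.0467), again with groups apart. Leaving out any one library ended the call (edgeR adjusted p between 0.0547 and 0.140, log2 fold change between 1.38 and 2.08). Both genes were highest in DOX replicate 1, as were the macrophage and lymphocyte marker sums, whose part was not tested. From DOX replicate 2 to DOX replicate 3 Lpcat2 rose, as both sums did, and Pla2g4a fell.

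The betaine and methionine cycle list had 1 of 14 tested genes higher and 0 lower (unadjusted 5 higher and 3 lower). The acetylcholine list held Bche, the esterase gene of the study, at 35.8, 16.4 and 99.3 CPM in DOX, against 0.212, 0.680 and 0.354 CPM in PBS (log2 fold change 6.91, SE 0.85, edgeR adjusted p = 0.0206). Among the DOX libraries Bche had the order of the hepatocyte marker sum, and among the PBS libraries it did not. DOX replicate 2 was above every PBS library in Bche but not in that sum. The part of hepatocyte RNA in the Bche difference was not tested. Bche no longer passed without PBS replicate 2 (7.45, edgeR adjusted p = 0.0694) or PBS replicate 3 (6.81, 0.0845), where 0 genes of the whole table passed. It did not pass in limma-voom (6.66, adjusted p = 0.0697).

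The other 4 lists had 0 genes called by edgeR. They were 3 tested genes of other choline transporters (unadjusted 1 higher and 1 lower, DESeq2 0 higher and 1 lower), 6 of the ethanolamine and serine branch (unadjusted 0 higher and 1 lower, DESeq2 0), 5 of CTP and diacylglycerol supply (unadjusted 0 higher and 3 lower, DESeq2 0 higher and 1 lower) and 8 of sphingomyelin exchange (unadjusted 2 higher and 1 lower, DESeq2 1 higher and 0 lower), and limma-voom called 0 in each. The gene with the lowest p among the transporters was Flvcr1, first described as a heme exporter and known to carry choline, at 27.5, 30.9 and 32.5 CPM in DOX, against 39.6, 41.5 and 38.0 CPM in PBS (log2 fold change -0.39, SE 0.0974, edgeR adjusted p = 0.0583). Its groups did not overlap, on the side opposite to Slc44a1 and Slc44a2. Lpin2, a phosphatidate phosphatase gene that supplies diacylglycerol, had 373, 423 and 336 CPM in DOX, against 519, 522 and 494 CPM in PBS (-0.44 on the log2 scale, SE 0.11, edgeR adjusted p = 0.0597), and the supply list had a median of -0.47. Selenoi, the ethanolamine phosphotransferase gene, differed by -0.25 on the log2 scale (SE 0.10, edgeR adjusted p = 0.163) and the sphingomyelinase-like gene Smpdl3b 0.64 (SE 0.22, edgeR adjusted p = 0.116).

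**Figure D5:**
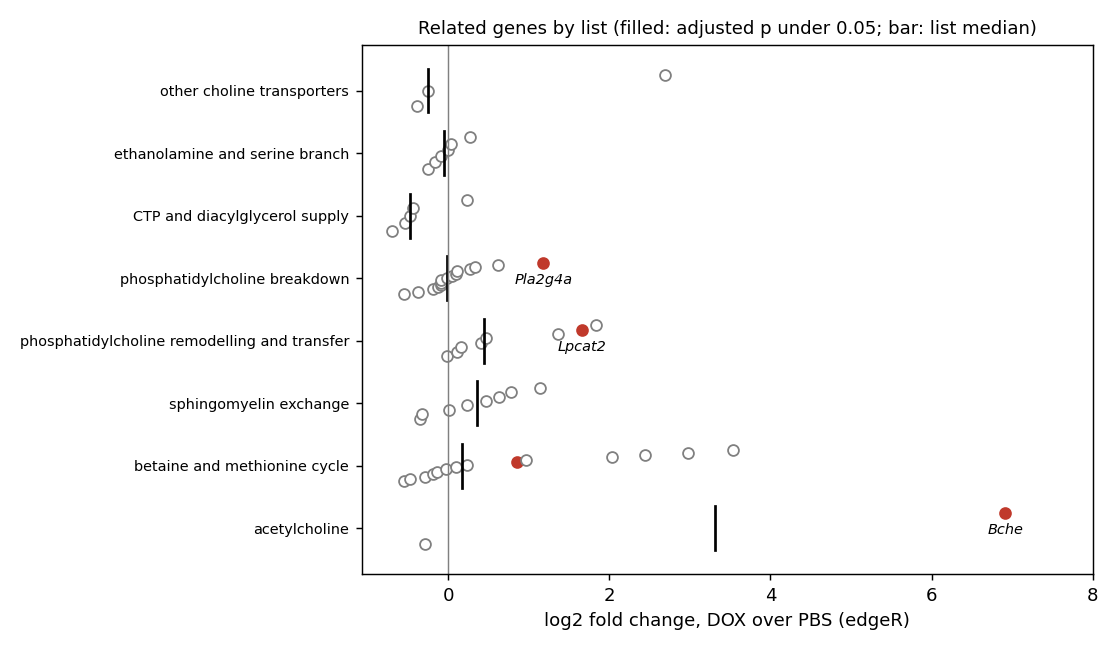
The log2 fold change of DOX over PBS (x axis) of the 61 tested related genes by list, filled where the edgeR adjusted p was under 0.05, with a bar at each list's median. Bche, Lpcat2 and Pla2g4a are labelled, and the median of CTP and diacylglycerol supply is -0.47.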

How the data were processed

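Per the labels' protocols, an RNeasy kit gave the RNA and a SMARTER mRNA kit the libraries. The authors deposited raw counts per gene symbol and FPKM values of the same genes, 1 column per sample. FPKM was the count divided by library total and a fixed gene length, so it adds no measurement. That length was not the exonic length in GENCODE vM21, being longer for Cept1 and shorter for Slc44a2 and Bhmt. Levels per length and their order depend on it, and shared exonic bases may differ in the gene models used for counting. The submitters' processing notes name GRCm38, mm10 and hg38 without saying what each was used for. Nothing names the aligner, the counter, the use of strand or the treatment of reads matching several genes, which were not given in the sources used here.

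Groups came from sample titles. Counts were tested with edgeR 4.0.16 (R 4.3.3), quasi-likelihood, TMM, filterByExpr (minimum count 10, total 15), 3 libraries per group, group as the only term, two-sided, Benjamini-Hochberg over 14439 genes, threshold 0.05. The code was tested on simulated data. SE values come from F statistics. Alternatives used DESeq2 1.42.0, limma 3.58.1 (voom, and log2(FPKM + 1) and log2(FPKM + 0.1)), other scalings and filters, a replicate block and leaving out each library. Ratios within a library had exact permutation tests. A Chka to Chkb ratio was not computed, as Chkb had 0 counts in 2 libraries. Motif searches used RefSeq windows, and 18750 of 22905 symbols (81.9%) were found in GENCODE vM21.

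The named genes were all 10 members, the called genes of each related list (1 is not reported here) or else its gene with the lowest p, and the 3 closest genes of each called member. Members, lists and markers were chosen with earlier results of these data known. Slc44a3, Slc44a4, Slc44a5, Slc22a3, Etnk2, Pcyt1b, Bhmt2 and Pipox were too low to test, and Slc5a7, Slc22a2, Chat and Slc18a3 were not analysed here.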

Additional observations from a re-analysis of the deposited data

How the results depend on the processing

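Of the 10 genes, 3 of 9 tested passed in edgeR, 5 passed in DESeq2 (Slc44a2 and Bhmt in addition), and 1, Cept1, passed in limma on log2(FPKM + 1) with a filter of 1 FPKM in 3 libraries. That filter removed Chdh and Bhmt, so they were not tested in that setting. Leaving out each library gave between 0 and 3 of the 10 genes. Over all genes, 926 passed in edgeR, 2629 in DESeq2 and between 0 and 1090 without each library, with 0 without PBS replicate 2 (3294 at an unadjusted p under 0.05) and 0 without PBS replicate 3 (3092). Of the related genes 4 passed, with 7 by library totals alone, 14 in DESeq2 and between 0 and 3 without each library. Scaling by library totals alone gave 611 higher and 730 lower genes, where TMM factors gave 632 and 294, and in limma on log2(FPKM + 1) 423 were higher and 402 lower. The log2 fold change of Chka was between -0.56 and 0.0176 without each library and that of Pemt between -0.28 and 0.79. The log2 ratio of Slc44a1 to Slc44a2 was between -0.24 and 0.0022. The cause of these changes was not tested. Pcyt1a and Chpt1 stayed outside the threshold, with 1 direction, in all 18 alternatives.

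Same-numbered DOX and PBS libraries had correlations of deviations of 0.0949, -0.106 and 0.232, and not every library correlated best with its own number. Pairing by replicate number was thus not shown, and so few libraries cannot exclude it. With the replicate number as a block, 781 genes, 3 related genes and 1 of the 10 genes (Cept1) passed in edgeR. The edgeR adjusted p was then 0.0669 for Slc44a1 and 0.0598 for Chdh.

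Chkb, at 1 count or 0 in each library, was too low to test, and Chdh and Bhmt in PBS rest on 40 counts or fewer.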

Other observations

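Some genes of the betaine and methionine cycle outside the named ones followed the order of the hepatocyte marker sum among the DOX libraries. They were chosen after their values were seen. Mat1a, the methionine adenosyltransferase gene of hepatocytes, had 3.10, 0.535 and 13.2 CPM in DOX replicates 1, 2 and 3, against 0.186, 0.576 and 0.682 CPM in PBS replicates 1, 2 and 3 (log2 fold change 3.53, edgeR adjusted p = 0.0960). Dmgdh, the dimethylglycine dehydrogenase gene that acts after Bhmt, had 1.11, 0.113 and 4.94 CPM in DOX, against 0.0795, 0.288 and 0.404 CPM in PBS (2.98, edgeR adjusted p = 0.157). In both genes DOX replicate 2 lay inside the PBS range, as Bhmt did.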
